A study of Mus musculus with 96 samples.

Results

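The stem cell transcription factor heptad is a set of 7 genes, Lmo2, Tal1, Lyl1, Gata2, Runx1, Erg and Fli1, whose proteins are known to occupy regulatory regions together in blood stem and progenitor cells. The members were taken by name, by no threshold on their values, and all 7 were found among the 38406 genes of the table. The cells were 96 single cells of the HSC1 sort, lineage-negative bone marrow cells that carried c-Kit, Sca-1 and CD150 and lacked CD34, Flt3 and CD48, from C57BL/6 mice aged 9 to 12 weeks according to the labels. No cell was treated, there is 1 group, and no animal is named, so the cells stand as 1 sample of a population and no comparison between conditions was possible. Of the 96 cells, 92 passed the technical filter, with 739093 to 3473151 counts in genes (median 1599930) and 4945 to 8727 detected genes (median 6605.5). All values below are from these 92 cells unless stated, and errors over them measure the spread between cells, technical noise included.

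The 7 proteins bind DNA in different ways. Tal1 and Lyl1 are basic helix-loop-helix (bHLH) factors that bind E-boxes as dimers with E proteins. Gata2 is a zinc finger factor of GATA motifs, Runx1 binds DNA with its partner Cbfb, and Erg and Fli1 are Ets factors. Lmo2 does not bind DNA itself and joins bHLH and GATA factors through Ldb1. In the mouse, Tal1, Lmo2, Gata2 and Runx1 are each needed for blood formation in the embryo, while Lyl1 can be lost with milder effects and is known to share functions with Tal1 in adult stem cells.

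The genes lie on 6 chromosomes in GENCODE M21, which annotates the GRCm38 build. Lmo2 is at chr2:103957986-103981878, Tal1 at chr4:115056426-115071755, Gata2 at chr6:88193891-88207032 and Lyl1 at chr8:84701457-84704715, all on the plus strand. Fli1 at chr9:32422204-32542861, Runx1 at chr16:92601466-92826149 and Erg at chr16:95359169-95586593 are on the minus strand. A count is the number of reads assigned to the whole gene, so the start sites of one gene are summed. Lyl1 shares 4 exon bases with Nfix on the other strand, and Runx1 shares 106 with the predicted gene Gm26626. Without knowledge of the strand setting, reads over those bases cannot be told apart, and Nfix, which had a mean normalized count of 54.6, was itself counted in 83 cells.

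Heptad factors are known to bind regulatory regions of their own genes, so the letters of their motifs were looked up before the start sites of the members. RefSeq windows on GRCm38.p6 were given for 5 of the 7 members, with 10 start sites in all, and Lmo2 and Fli1 had none. The stretch searched was the 250 bases before each start, on both strands, for GATAA (GATA factors), CCGGAA (a form of the Ets motif), CANNTG (the E-box) and TGTGGT (Runx factors). Of the 10 stretches, 2 held GATAA, 2 held CCGGAA, 3 held CANNTG and 0 held TGTGGT. Among 32841 such stretches of the genome, 22.6% held GATAA, 12% CCGGAA, 66.2% CANNTG and 14% TGTGGT. The stretches of 3 members are shown because Tal1 and Lyl1 are related bHLH factors of unequal level, and because Runx1 has a start site with an Ets motif. Capitals mark the motif matches, and the 5′ to 3′ direction is that of the gene.
Tal1, chr4:115056176-115056425, plus strand: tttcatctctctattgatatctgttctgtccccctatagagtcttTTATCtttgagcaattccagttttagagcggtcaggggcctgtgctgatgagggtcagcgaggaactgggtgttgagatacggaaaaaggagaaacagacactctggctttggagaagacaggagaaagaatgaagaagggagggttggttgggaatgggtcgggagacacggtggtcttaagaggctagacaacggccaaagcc
Lyl1, chr8:84701207-84701456, plus strand: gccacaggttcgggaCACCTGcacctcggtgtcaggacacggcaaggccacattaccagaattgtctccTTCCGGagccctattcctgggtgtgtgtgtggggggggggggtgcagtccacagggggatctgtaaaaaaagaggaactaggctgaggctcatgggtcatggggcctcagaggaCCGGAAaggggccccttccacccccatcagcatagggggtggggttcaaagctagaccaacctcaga
Runx1, chr16:92697330-92697579, minus strand: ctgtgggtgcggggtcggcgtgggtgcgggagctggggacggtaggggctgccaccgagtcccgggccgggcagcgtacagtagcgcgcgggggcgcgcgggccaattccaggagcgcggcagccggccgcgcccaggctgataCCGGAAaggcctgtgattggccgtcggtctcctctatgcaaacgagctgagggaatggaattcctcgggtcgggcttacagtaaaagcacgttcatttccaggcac
The Tal1 stretch held 1 match, to GATAA on the reverse strand, 205 bases before the start. The Lyl1 stretch held 2 matches to CCGGAA, which began 181 bases before the start on the reverse strand and 67 bases before it on the printed strand, and 1 E-box 235 bases before it. The Runx1 stretch held 1 match to CCGGAA, 106 bases before the start. A match gives the letters only, and no binding was measured in these cells.

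The heptad was transcribed in these cells at very unequal levels. Lmo2 stood far above the other members, Lyl1 and Gata2 followed, Fli1, Erg and Runx1 were lower, and Tal1 was the lowest in normalized counts, the read counts divided by the size factor of each cell. Lmo2 was counted in all 92 cells. Its normalized count was 620 in the lowest cell, 2199 in the median cell and 12994 in the highest, with a mean of 2447 ± 1562 (SD, n = 92 cells). The highest cell, cell 18, was set apart, since the next one, cell 29, had 5644. Only a small part of the transcriptome was this abundant: by mean normalized count Lmo2 was the 65th of all genes.

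The bHLH pair was unequal. Lyl1 was counted in 91 cells, from 0 in cell 41 through a median of 564 to 1893 in cell 8, with a mean of 608 ± 401 (SD, n = 92 cells). Tal1 had a lowest value of 0, a median of 54.9 and a highest value of 382, in cell 89, with a mean of 81.4 ± 86.3 (SD, n = 92 cells). The quartiles of the 2 genes did not overlap, from 3.52 to 127 for Tal1 and from 310 to 844 for Lyl1, on the scale of normalized counts.

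Gata2, which maintains the stem cell pool, was the only member besides Lmo2 with counts in every cell. Its values ran from 8.59 in cell 30 through a median of 476 to 1303 in cell 76, with a mean of 541 ± 310 (SD, n = 92 cells). The lower end was sparse: cells 30 and 23 had 8.59 and 19.2, and the next lowest cell had 54.2.

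Runx1, the core binding factor of definitive blood formation, ran from 0 in 3 cells through a median of 167 to 1172 in cell 43, with a mean of 204 ± 184 (SD, n = 92 cells). Of the Ets factors, Erg ran from 0 in 5 cells through a median of 228 to 1093 in cell 56, with a mean of 288 ± 228 (SD, n = 92 cells). Fli1 ran from 0 in 3 cells through a median of 215 to 2335 in cell 69, with a mean of 309 ± 343 (SD, n = 92 cells). The top cell of Fli1 again stood apart, since the second had 1252.

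**Figure D1:**
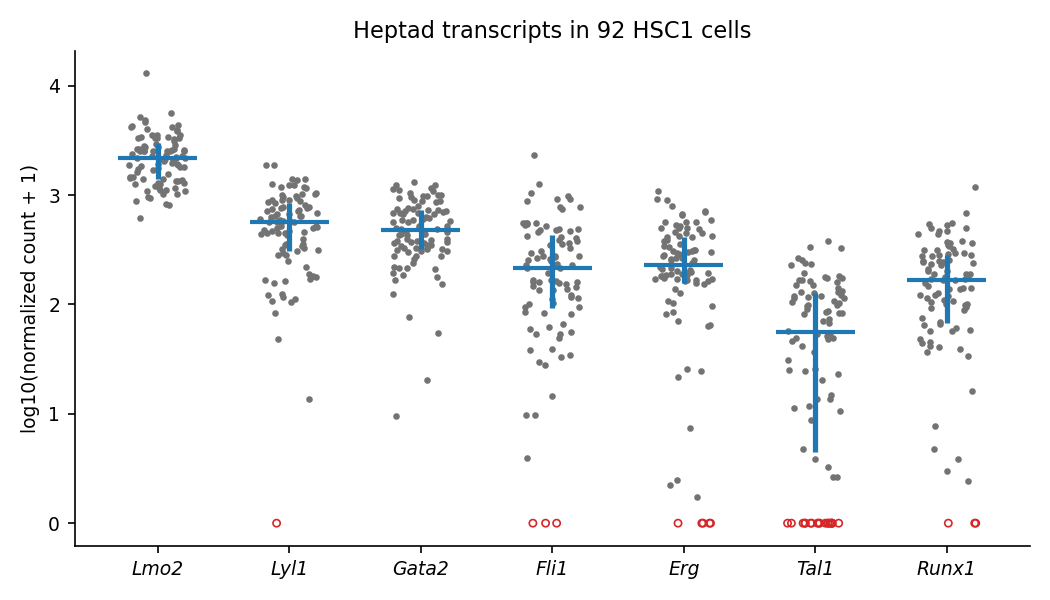
Normalized counts of the 7 members in 92 HSC1 cells, as log10(normalized count + 1) on the vertical axis, with 1 grey point per cell, open red circles at 0 counts, the median as a horizontal blue line and the quartiles as a vertical blue line; genes are ordered by mean count per kilobase. The median was 2199 for Lmo2 and 54.9 for Tal1, and 19 cells had 0 counts of Tal1.

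Longer transcripts give more reads, so levels of different genes were compared per kilobase of exon. On that scale Lmo2 had a mean of 1130, Lyl1 338, Gata2 100.2, Fli1 88.6, Erg 83.1, Tal1 18.6 and Runx1 16.96 normalized counts per kilobase. Lmo2 then ranked 75th and Lyl1 220th among the 19229 genes with counts whose symbol matched an annotated gene, and Tal1 and Runx1 ranked 4015th and 4313th. The quartiles over cells of Lmo2 (643 to 1378 per kilobase), Lyl1 (172 to 469) and Gata2 (58.7 to 135) did not overlap in turn. Gata2, Fli1 and Erg did not differ beyond their spread, and neither did Tal1 and Runx1. The order of the last pair depends on the length used, since Runx1 has 12025 bases of exon over all its isoforms: per kilobase of the mean protein-coding transcript it had 48.6 and Tal1 22.6. The order of Erg and Fli1 also turned, to 137 for Erg and 93.1 for Fli1.

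Within single cells the lead of Lmo2 and the order of the bHLH pair were the most regular. Lmo2 was the highest member per kilobase in 83 cells, Lyl1 in 8 and Fli1 in 1. Lmo2 supplied a median of 63.9% of the summed heptad count per kilobase of a cell, with a range of 27.02% to 87.1%. The median share was 17.8% for Lyl1, 5.22% for Gata2, 4.44% for Erg and 3.40% for Fli1, and Runx1 and Tal1 had medians of 0.840% and 0.697%. Lyl1 exceeded Tal1 per kilobase in 90 of 92 cells, whereas Fli1 exceeded Erg in 49. The lowest member per kilobase was Tal1 in 40 cells and Runx1 in 35. The summed level ran from 864 normalized counts per kilobase in cell 33 through a median of 1634 to 7052 in cell 18.

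Most cells held transcripts of the whole heptad. All 7 members had at least 1 count in 66 of 92 cells, which is 71.7% (Clopper-Pearson 95% interval 61.4% to 80.6%, counting error only). A further 22 cells held 6 members, 3 held 5, and 1 cell, cell 38, held 4. Of the cells that lacked a single member, 16 lacked Tal1, 3 lacked Erg, and 1 each lacked Lyl1, Runx1 and Fli1. Tal1 was counted in 73 cells (79.3%, interval 69.6% to 87.1%), Erg in 87, Runx1 and Fli1 in 89 each, and Lyl1 in 91. Having counts in all 92 cells, as Lmo2 and Gata2 did, was shared by 2.84% of the 21211 genes with counts.

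**Figure D2:**
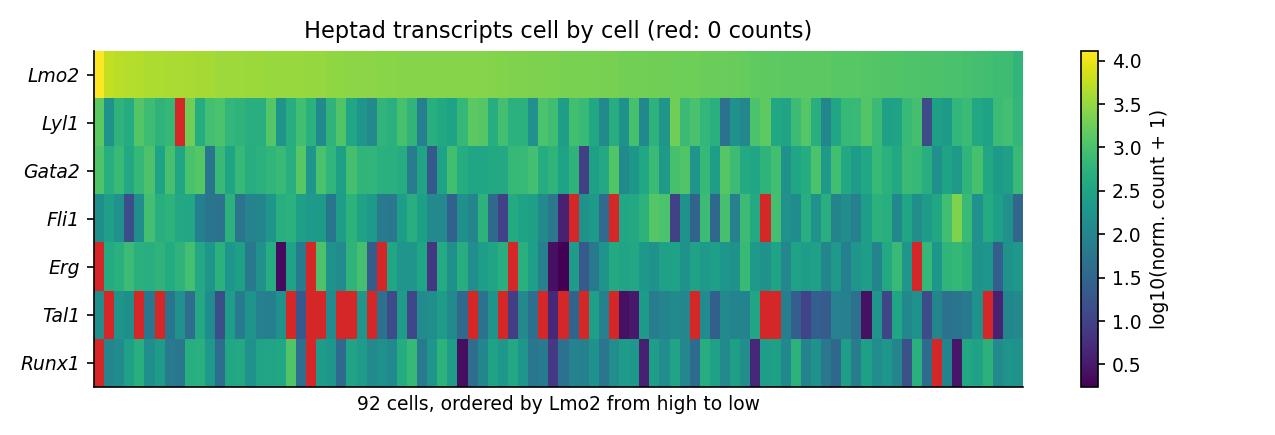
The 7 members in each of the 92 cells, with cells in columns ordered by Lmo2 from high to low, genes in rows ordered by mean count per kilobase, and colour for log10(normalized count + 1); red marks 0 counts. The red marks lie mostly in the Tal1 row, where 19 cells had 0 counts, and 1 column, cell 38, lacks Tal1, Runx1 and Erg together.

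Joint losses of related members were looked for in the cells with 0 counts. Among the 19 cells with 0 counts of Tal1, Lyl1 ran from 115 to 1403 normalized counts with a median of 522, beside a median of 571 in the 73 cells with Tal1 counts. The range of the first group lay inside that of the second, which ran from 0 to 1893. The 1 cell with 0 counts of Lyl1, cell 41, had 159 normalized counts of Tal1. No cell lacked both Ets factors. With Lyl1 counted in 91 cells, and Erg and Fli1 in 87 and 89, joint losses would be rare in any case, and nothing is read from their absence. Absence of counts is not absence of RNA at this depth. Spike-ins, control RNAs added to every well, with mean raw counts of 83.7 and 86.99 were counted in 56 and 60 cells, and Tal1, with a mean raw count of 84.8, in 73. Other members went the other way: the 2 spike-ins nearest Fli1 were counted in 92 and 91 cells, and Fli1 in 89. The 19 cells without Tal1 had a median of 1747691 counts in genes, beside 1595945 in the 73. Their median share of ERCC spike-in counts was 1.52%, beside 1.11%, and the part of RNA content in the missing counts was not tested.

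Cell 18 had the fewest detected genes of the 92 cells, 4945, the highest Lmo2, 12994 normalized counts, and 1392 of Lyl1, 1109 of Gata2, 140 of Tal1 and 145 of Fli1, with 0 of Runx1 and Erg although it had 3473151 counts in genes. Cell 69, the top cell for Fli1, stood apart in Fli1 alone, with 1014 of Lmo2 and 1.996 of Runx1, values that other cells shared or went below, and it lacked no member.

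**Figure D3:**
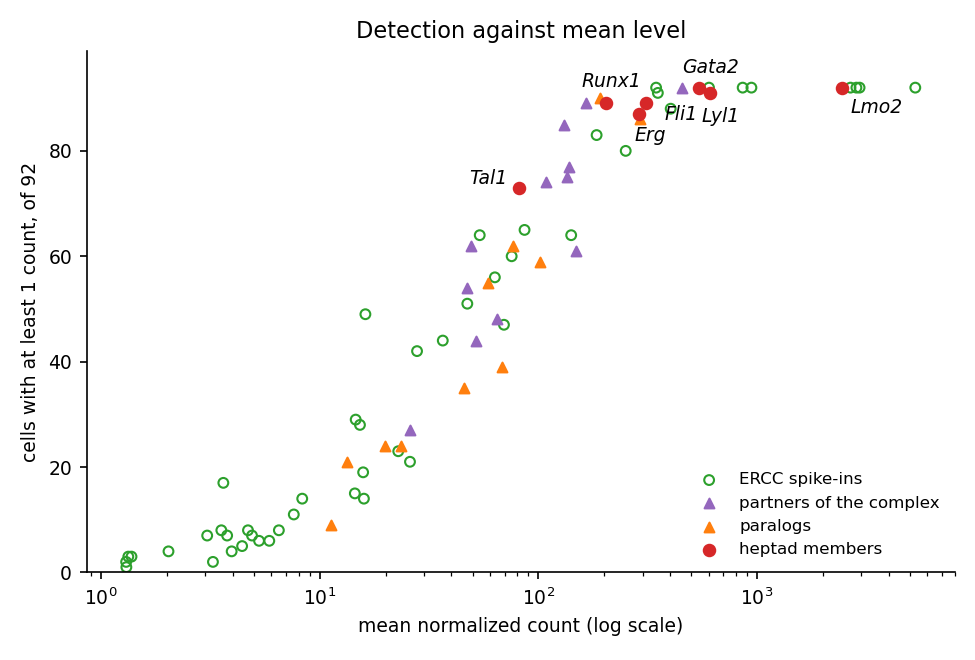
Number of cells with at least 1 count, of 92, against the mean normalized count on a log axis, for the heptad members (red points), partners of the complex (purple triangles), paralogs (orange triangles) and ERCC spike-ins (green circles), all with a mean of at least 1. Tal1 lies at 73 cells and the other members at 87 to 92, and spike-ins of like mean lie on both sides of them. By mean raw count, the 2 nearest Tal1 were counted in 56 and 60 cells, and the 2 nearest Fli1, itself in 89, in 92 and 91.

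Variation between cells was then set against technical noise. For each gene the squared coefficient of variation was compared with the value fitted to the ERCC spike-ins at the same mean, by a chi-square test after Brennecke et al., adjusted over 21211 genes by the Benjamini-Hochberg procedure. None of the 7 members was called variable, with 0 of 7 at an adjusted p under 0.1 and 0 of 7 at an unadjusted p under 0.05. Of all genes 2.64% were called, as were 4.5% of those with a mean of at least 50, and 4.27% of all genes had an unadjusted p under 0.05. The lowest p was that of Fli1, with an unadjusted p = 0.116 and an adjusted p = 1 from the same chi-square test. By the fitted value alone, with no significance level, 2 of 7 members lay above it, Lmo2 and Fli1, beside 12.4% of all genes and 24.8% of those with a mean of at least 50. The test asks for a biological coefficient of variation over 0.5. At 0.25 it called Lmo2 and Fli1, with 3.42% of all genes. The paper on these cells, which also followed Brennecke et al., named Fli1 and Lyl1 among the genes that varied beyond technical noise. Its list of variable genes was far longer than the 560 genes called here, so its calls were broader. Its settings may differ from those used here, and the difference in calls was not tested. The absence of calls at 0.5 therefore does not mean that the members lack variation between cells.

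Each of the 2 members above the fitted value came close to it once a single cell was left out. The squared coefficient of variation of Lmo2 was 0.408, which is 2.02 times the fitted value, and 1.08 times without cell 18. The 2 spike-ins of nearest mean to Lmo2 lay under the curve, with squared coefficients of variation of 0.101 and 0.0651, beside a fitted value of 0.202. Abundant spike-ins did not all lie under it: the most abundant, with a mean normalized count of 5289, had 0.333. For Fli1 the squared coefficient of variation was 1.23, or 1.60 times the fitted value, and 1.08 times without cell 69. Spike-ins near Fli1 in mean spread widely: the 2 nearest had 0.191 and 0.433, and the next on either side, with mean normalized counts of 251 and 402, had 1.482 and 0.969. The other members were at or below the curve, at 0.967 times the fitted value for Lyl1, 0.766 for Erg, 0.741 for Runx1, 0.669 for Gata2 and 0.435 for Tal1.

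**Figure D4:**
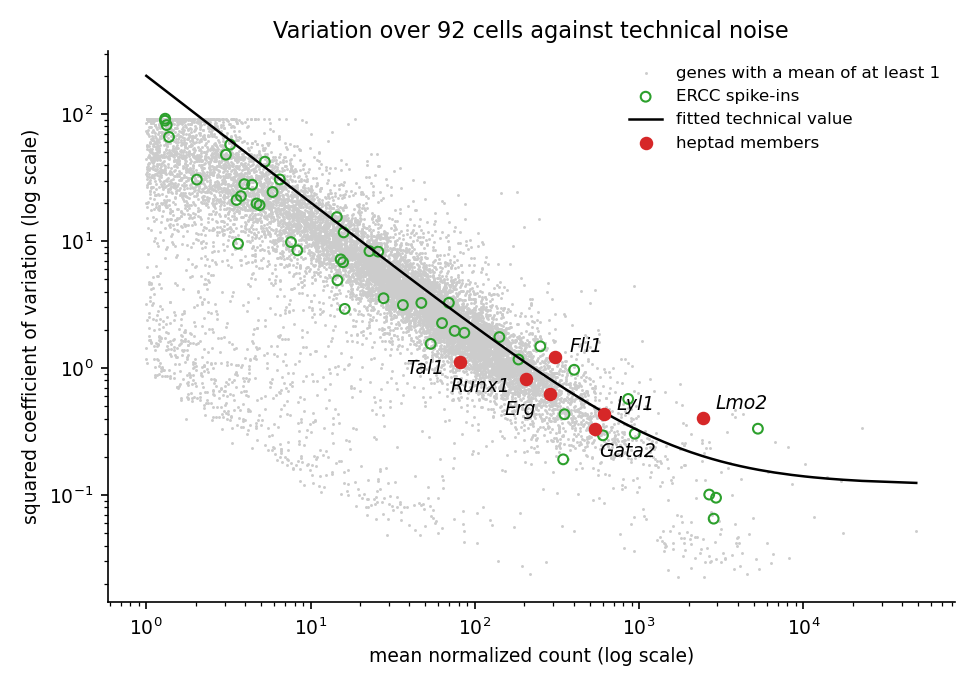
Squared coefficient of variation against mean normalized count over 92 cells, both on log axes, for genes with a mean of at least 1 (grey), ERCC spike-ins (green circles) and heptad members (red points), with the fitted technical value as a black line. Lmo2 and Fli1 lie above the line, at 2.02 and 1.60 times the fitted value, and the other 5 members lie at or under it.

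Covariation between the members was weak in both directions. The 21 pairs had Pearson's r from -0.204 to 0.230 with a median of 0.00054 on log10(normalized count + 1), and 11 of the 21 were positive. By Spearman's rho they ran from -0.197 to 0.177 with a median of 0.0488, and 15 were positive. These are descriptions over 92 cells that share a sort and unknown animals. Across all pairs of the 5095 genes with counts in at least 46 cells and a mean of 50 or more, the 5th and 95th percentiles of r were -0.168 and 0.197, and 19 of the 21 member pairs lay between them. Pairs of 18 spike-ins ran from -0.599 to 0.662. The centre of these values depends on the scaling: with size factors from the spike-ins the member pairs had a median r of 0.154 and all gene pairs one of 0.0786.

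The pair with the highest r was Runx1 and Erg, 2 factors that lay together at 0 in cells 18 and 38. Their r was 0.230 and rho 0.133, and r was 0.0158 without the 2 cells farthest from the Runx1 median and 0.304 without the 2 farthest from the Erg median. Tal1 and Fli1 had r = 0.142 but rho = 0.0052, and Tal1 and Gata2, whose proteins occur in 1 complex, had r = 0.139 and rho = 0.113. The lowest was that of Lyl1 and Fli1, with r = -0.204 and rho = -0.197, and it stayed negative under all 10 other settings tried. Among related factors, Tal1 and Lyl1 had r = -0.115 and Erg and Fli1 had r = 0.0947. Lmo2 had r = -0.0439 with Tal1, 0.0271 with Lyl1 and 0.108 with Gata2.

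**Figure D5:**
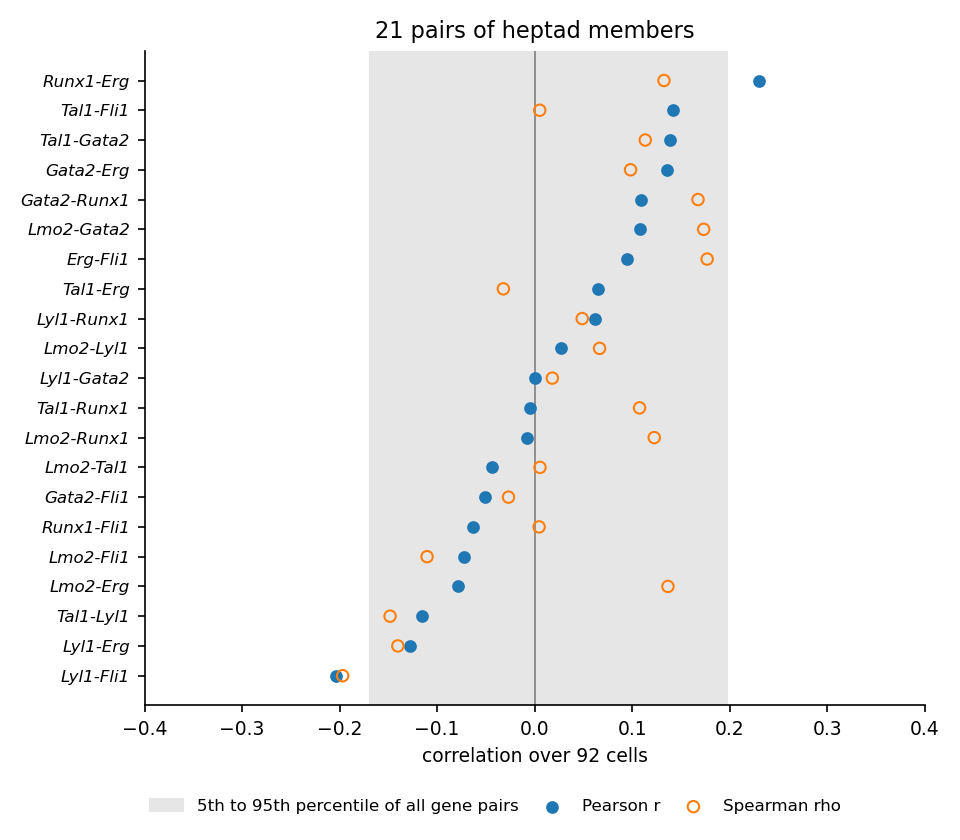
Pearson's r (filled blue) and Spearman's rho (open orange) of the 21 pairs of members over 92 cells, with pairs in rows ordered by r and the 5th to 95th percentile of r over all gene pairs as a grey band, from -0.168 to 0.197. The pairs Runx1-Erg and Lyl1-Fli1 lie outside the band by r, at 0.230 and -0.204, and have rho of 0.133 and -0.197.

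Several members went with technical measures of the cell as much as with each other. Lmo2 had r = -0.354 with the log10 number of detected genes and 0.280 with the share of ERCC counts, and Runx1 had r = -0.296 with the log10 count in genes. Their part in the relations above was not tested beyond partial correlations given detected genes, which left the r of Runx1 and Erg at 0.230 and of Lyl1 and Fli1 at -0.213.

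The genes most like each member by r, among 5094 compared over 92 cells, had r of 0.342 to 0.488. These were picked as the highest of many values. The lowest r of each member ran nearly as far from 0, between -0.427 for Runx1 and -0.334 for Lyl1. For Lmo2 the first was Gpr56, an adhesion receptor of blood stem cells, with r = 0.488 and rho = 0.465, and it kept r = 0.393 without the 2 cells farthest from the Lmo2 median. Ftl1, the ferritin light chain, followed with r = 0.424, and Gnb2, a G protein subunit, with 0.388. For Lyl1 they were Cpq, a carboxypeptidase (r = 0.478), Ap2m1, an adaptor of clathrin coats (0.462), and Preb (0.429), of which Ap2m1 fell to 0.0879 without 2 cells. Gata2 was followed by Sepp1, the plasma selenoprotein (0.481), Ywhab, a 14-3-3 protein (0.405), and Psap, the saposin precursor (0.404), all with rho of 0.243 or less.

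For Tal1 the 3 were Manbal (0.400), the pseudogene Rpl14-ps1 (0.386) and Ndufab1, a subunit of respiratory complex I (0.375), of which Ndufab1 had a rho of 0.114. Runx1 went with 1500012F01Rik (0.453), Rpph1, the RNA of ribonuclease P (0.428), and the pseudogene Rpl9-ps6 (0.424). Of these, 1500012F01Rik had a rho of 0.214, and Rpl9-ps6 fell to r = 0.183 without 2 cells. The reads of both pseudogenes may belong to their parent genes. Erg went with Marc2, a mitochondrial reductase (0.448), and with the predicted genes Gm26191 (0.382) and Gm22179 (0.375). Fli1 had the lowest leading values, with Tmpo, a protein of the nuclear lamina (0.354), 4930453N24Rik (0.344) and Gtf3c2, a subunit of the polymerase III factor TFIIIC (0.342).

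A mean z score of the 7 members went highest with March2 (0.386), Dtx3 (0.338), Tfr2, a transferrin receptor of erythroid cells (0.332), Cnpy4 (0.320) and Gpr56 (0.299). It went lowest with Impa2 (-0.374), Ctso (-0.366), Ier3ip1 (-0.336), Rap1a (-0.327) and Sept1 (-0.321). No member of the heptad was among the 3 genes most like another.

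Genes of the proteins that complete the complexes were transcribed too, with means below those of Lmo2, Lyl1 and Gata2. They were not below every member, since Ssbp2 had a higher mean than Fli1, Erg, Runx1 and Tal1. Of 12 partner genes, 10 were counted in at least 46 cells. By the same chi-square test 0 of 12 were called variable, beside 2.64% of all genes. An unadjusted p under 0.05 was found for 0 of 12, beside 4.27% of all genes. Above the fitted value lay 4, beside 12.4% of all genes and 24.8% of those with a mean of at least 50. Nothing is read from the absence of calls in so few genes. Ssbp2, which stabilizes Ldb1, had counts in every cell and a mean of 452 ± 345 (SD, n = 92 cells). Cbfa2t3, a corepressor that joins Tal1 complexes, had a mean of 165 ± 143 in 89 cells and Cbfb, the partner of Runx1, 149 ± 211 in 61 cells. The E protein Tcf4 had a mean of 138 ± 137 in 77 cells and its relative Tcf3 108 ± 99.01 in 74. Ldb1 itself had a mean of 130 ± 113 (SD, n = 92 cells) in 85 cells.

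Among genes whose proteins bind each other, Lmo2 and Ldb1 had r = -0.107, and Runx1 and Cbfb -0.0898. Tal1 had r = 0.113 with Tcf3 and -0.286 with Tcf12. The highest value for a partner was r = 0.312, of Runx1 with Zfpm1, the GATA cofactor Fog1, which was chosen after its value was seen.

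Of the 13 paralogs of the members, 5 were counted in at least 46 cells. By the chi-square test 0 were called variable and 0 had an unadjusted p under 0.05, beside 2.64% and 4.27% of all genes. Above the fitted value lay 2, beside 12.4% of all genes. Nothing is read from the absence of calls in so few genes. The paper named Gata1, Gata3 and Ets2 among its variable genes, in a list far longer than the calls made here. The Ets genes Elf1 (292 ± 235, 86 cells) and Etv6 (191 ± 155, 90 cells) were the highest, at means near those of Erg and Fli1. Gata3 had a mean of 102 ± 147 in 59 cells and Runx2 76.4 ± 116 in 62. Gata1, the erythroid and megakaryocytic GATA factor, was counted in 9 cells, Lmo3 in 1 and Tal2 in 0, which allows a share of cells with a count of up to 3.26%.

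The Id genes encode inhibitors that take E proteins away from bHLH factors. Id2 was counted in 23 cells at a mean of 29.7 ± 68.5 and Id1 in 9 at 10.6 ± 46.5 (SD, n = 92 cells), and Id3 and Id4 in 0. None of the 4 was called, with 0 at an unadjusted p under 0.05 by the chi-square test, beside 2.64% and 4.27% of all genes. Above the fitted value lay 1, beside 12.4% of all genes, and nothing is read from so few genes.

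Of 18 genes known as targets of heptad factors, 14 were counted in at least 46 cells. Of the 18, 5 were called variable and 10 lay above the fitted value, beside 2.64% and 12.4% of all genes. Among genes with a mean of at least 50, as most of these targets had, the shares were 4.5% and 24.8%. Among the highest were Nfe2, a factor of megakaryocytes (1146 ± 603), Eng, a TGF-beta coreceptor (692 ± 353), and Meis1 (671 ± 395), each in all 92 cells and none of them called. Those called were the repressors Gfi1 and Gfi1b and 3 genes of megakaryocytes, Itga2b, Pf4 and Vwf. Whether targets and members differ in this was not tested. Over the 14 targets with a mean of at least 50 in at least 46 cells, the median r with a member ran from -0.0474 for Erg to 0.0544 for Lyl1. The highest single value was r = 0.406, of Lyl1 with Nfe2, and the next was r = 0.255, of Fli1 with Vwf.

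The stem cell label was set beside marker genes. The list of stem cell markers holds the genes of Sca-1, c-Kit and CD150, on which the cells were sorted, so it is not an independent check. Of 12 stem cell markers, 11 were counted in at least 46 cells, among them Pdzk1ip1, Mllt3 and Ly6a, the gene of Sca-1. Among 9 erythroid markers 0 were counted in 46 cells, and Car1, Hba-a1 and Hba-a2 were at 0. Megakaryocyte markers were present in part of the cells: Gp9 was counted in 53 cells and Pf4, Itga2b and Selp in 34 each, and Pf4 reached 6885 normalized counts. The summed level of that list ran from 0 through a median of 182 to 8914, and its part in the values of the members was not tested. Of its 7 markers 3 were called variable, beside 2.64% of all genes and 4.5% of those with a mean of at least 50. Among the other lists, 2 of 12 stem cell markers, 1 of 8 granulocyte and monocyte markers and 0 of the rest were called. The granulocyte genes Mpo, Elane and Ctsg were at 0, although Lyz2 was counted in 92 cells and Prtn3 in 90. Of the lymphoid markers Il7r, Dntt and Cd3e were at 0 and Cd79b was counted in 63 cells, and the mast cell markers Fcer1a, Ms4a2 and Prss34 were at 0. Tie1, Emcn and Pecam1, which endothelium shares with stem cells, were counted in 84, 61 and 53 cells, and the endothelial cadherin Cdh5 in 1. The highest r of a member with the mean z score of a marker list was that of Runx1 with the stem cell markers. It was r = 0.305 with rho = 0.298, and r was 0.235 without the 2 farthest cells. For the other members r with that score ran from -0.0903 for Tal1 to 0.163 for Lyl1.

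Gata1 and Gata2 are known to replace each other at shared sites during erythroid differentiation. In the 9 cells with Gata1 counts, Gata2 was counted in all 9, from 215 to 1226 normalized counts with a median of 366, beside a median of 476 over all cells. Lyl1 had a median of 249 there, beside 564, and Tal1 one of 97.7, beside 54.9. All 5 cells that stood apart in earlier results, 18, 49, 53, 66 and 78, were among the 9, and no test was made over cells of unknown animals.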

How the data were processed

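Per the labels, the authors made 1 library per cell after full-length reverse transcription and sequenced it in paired ends. The submitters' processing notes name the aligner STAR 2.3.0, the counter HTSeq 0.6.1, SAMtools 0.1.18 and the build mm10, and the strand setting of the counting is not given in the sources used here. The deposited values are raw counts of genes and ERCC spike-ins, with no molecular identifiers, so intervals cover counting error only. Authors' PCR, index sort and transplantation data were not analysed here.

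Cells were left out when they fell more than 3 scaled median absolute deviations short of the median in log10 count in genes or log10 number of detected genes, or exceeded it as far in the share of ERCC counts, which removed cells 1, 2, 6 and 36. No 2 cells held identical values. Size factors were medians of ratios, over the 602 genes and separately the 8 spike-ins counted in all 92 cells. Technical noise was modelled by gamma regression (identity link), predicting each squared coefficient of variation from the inverse mean, for the 16 spike-ins whose mean was 67.0 or more. Calls of variable genes used the chi-square statistic of Brennecke et al., with the lowest biological coefficient of variation set to 0.5, and an adjusted p under 0.1; its p-values allow for technical noise only and say nothing of animals. Lengths were taken from GENCODE M21 by symbol, as exon bases over all isoforms. Correlations over cells carry no p.

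The members and gene lists were chosen with earlier results of these data known. Named genes were the members, for each the 3 genes of highest r among those with a mean of at least 50 in at least 46 cells, the 5 highest and lowest for the mean z score, and the 4 highest of each list, with defining markers at 0, except some genes of these lists that are not reported here. Other choices tried were total-count and ERCC size factors, all 96 cells, cells 18, 49, 53, 66 and 78 left out (they stood apart on the first 2 principal components in earlier results), thinning to 739093 counts, a count minimum of 10, a pseudocount of 10 in place of 1, spike-ins above the 50th in place of the 80th percentile, and a minimum coefficient of variation of 0.25. Leaving out cell 18 or cell 69 and another transcript length were chosen after seeing the data. The steps were tested on simulated data. Software was Python 3.11.15 with statsmodels 0.14.6, scipy 1.17.1, pandas 2.3.3, numpy 2.4.6 and matplotlib 3.10.9.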

Additional observations from a re-analysis of the deposited data

How the results depend on the processing

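Over 35 values, the means of the 7 members moved by -5.07% to 17.4% under the other settings, the most for Tal1 with ERCC size factors. Over 28 values, detection moved by -8.7 to 0.962 percentage points, the most for Tal1 with at least 10 counts. ERCC size factors for genes moved the most: they called 1 member variable, Fli1, with 4.94% of all genes, set 4 members above the fitted value in place of 2 (Lmo2, Lyl1, Gata2 and Fli1) while the share of all genes above it went from 12.4% to 24.9%, and brought the median r of the member pairs to 0.154 and the lowest to -0.0645, beside a median of 0.0786 over all gene pairs under the same size factors. A minimum biological coefficient of variation of 0.25, or no significance level, gave 2 variable members in place of 0. With at least 10 counts, 57.6% of cells held all 7 members in place of 71.7%. With all 96 cells the highest r was 0.427, of Lmo2 and Lyl1, where cell 2 had 0 counts of both. Of the 21 pairs, 7 kept 1 sign under the main and all 10 other settings, and 37 of 210 values of r moved by 0.1 or more. The cause of these changes was not tested. The data cannot tell low RNA from lost RNA in cells with 0 counts. No paired analysis was possible because there is 1 group.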
